A study of Arabidopsis thaliana with 16 samples.

Results

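AT3G13610 encodes the feruloyl-CoA hydroxylase of coumarin synthesis and carries the synonym F6'H1 in the reference gene table. It is 1 of 13286 genes with a probe set of their own that the reference table also holds, and it was followed here through the only probe set paired with it alone, out of 22746 probe sets tested. The gene was chosen by its log2 differences on these same arrays, between hypoxia and normoxia in each line and between the lines. Its own values are therefore a description, with estimates and standard errors but no test.

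Coumarins are aromatic compounds that branch off the phenylpropanoid pathway, the route that also supplies lignin and flavonoids. F6'H1 is a dioxygenase that uses ferrous iron, 2-oxoglutarate and molecular oxygen to hydroxylate feruloyl-CoA, and the product closes into scopoletin. Arabidopsis roots store scopoletin as its glucoside scopolin and release coumarins that help to mobilise iron in alkaline soil. Scopoletin also accumulates during defence against pathogens.

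RNA came from the roots of 14-d-old seedlings of wild type, ecotype Columbia, and from plants carrying an RNA interference construct against HRE1, which encodes an ethylene response factor. Both were taken under normoxia and under hypoxia of 6 h at 3% oxygen, giving 4 groups of 4 arrays that the labels call biological replicates. All seedlings grew on sucrose-containing agar, and the hypoxia treatment is described as given in the dark after 1 h in the dark on wet paper, with no separate account of the normoxia handling. The sample titles name 1 interference line, HRE1-RNAi20, while most sample descriptions name lines numbered otherwise, so the arrays may come from 1 line or from several. The promoter driving the construct is not given in the sources used here, and HRE1 itself had no paired probe set, so its knockdown was not analysed here. Whether the separate arrays were separate cultures is not stated, so the p-values below measure the spread between these arrays.

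All arrays were on a common scale, and their median intensities lay between 166.3 and 206.5. Both HRE1-RNAi arrays numbered 4 stood somewhat apart from their groups. Their mean correlation with the other arrays of their own group was 0.962 under normoxia and 0.961 under hypoxia, against 0.964 to 0.973 for the other 14 arrays. The same arrays had the largest mean log2 difference between control probe sets for the 3' and 5' transcript ends. It was 2.11 under normoxia and 1.95 under hypoxia, against 1.34 to 1.88 for the other 14 arrays. Of 17 listed genes of root cell types, 5 had a probe set, and their summed intensity was 22278 to 27507 in wild type normoxia, 17461 to 24082 in wild type hypoxia, 21173 to 28374 in HRE1-RNAi normoxia and 15689 to 25686 in HRE1-RNAi hypoxia. Of 17 listed genes of shoot photosynthesis, 3 had a probe set, and their summed intensity was 1798 to 2055, 1095 to 1134, 1825 to 1980 and 1012 to 1480 in the same order. Both sums were lower under hypoxia than under normoxia on average. Most of the root sum came from PYK10, also a member of the coumarin list, while the other 4 root genes (EXPA7, EXPA18, XTH26 and AT1G65570) fell in both lines by limma, with wild type log2 differences from -2.68 for XTH26 to -1.35 for EXPA18. Of the shoot genes LHCB4.1 fell, by 0.98 in wild type, and RCA and PRK were not called. The part of these markers in the results below was not tested. In whole roots, fewer cells of a type and less RNA per cell cannot be told apart.

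In wild type under normoxia, F6'H1 had intensities of 1513, 1788, 1291 and 1403 in arrays 1 to 4, with a mean of 1499 ± 213 (SD, n = 4). After hypoxia the wild type arrays read 7372, 7629, 8137 and 6376, with a mean of 7379 ± 740 (SD, n = 4). The lowest wild type hypoxia array was 3.57 times the highest normoxia array, and the ratio of the means was 4.92. Hypoxia separated the wild type arrays completely, with every hypoxia array above every normoxia array. Of all probe sets, 9.07% were separated in that direction in wild type.

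In HRE1-RNAi under normoxia the arrays read 1039, 1070, 1335 and 937.3, with a mean of 1095 ± 170 (SD, n = 4). After hypoxia they read 7046, 9500, 9147 and 7567, with a mean of 8315 ± 1193 (SD, n = 4). The lowest hypoxia array was 5.28 times the highest normoxia array, and the ratio of the means was 7.59. The HRE1-RNAi groups did not overlap either, as was true of 7.93% of all probe sets in that direction in this line.

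**Figure D1:**
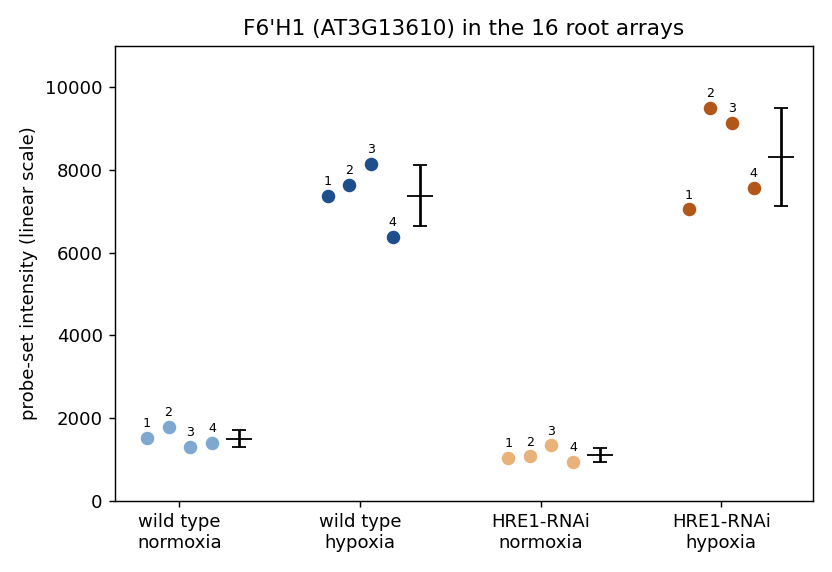
Intensity of F6'H1 for each of the 16 arrays, with the replicate number beside each point and a bar at the mean of each group of 4. Every hypoxia array lies above every normoxia array, the HRE1-RNAi normoxia mean of 1095 lies below the wild type mean of 1499, and the hypoxia groups overlap.

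Ordered by mean, F6'H1 was lowest in HRE1-RNAi normoxia, then in wild type normoxia, then in wild type hypoxia, and highest in HRE1-RNAi hypoxia. The first neighbours in this order, the normoxia groups, lay apart by more than the spread within groups. On the log2 scale, after adding a pseudocount of 16 to each intensity, HRE1-RNAi minus wild type was -0.45 ± 0.14 (SE), against a pooled standard deviation within groups of 0.19. The groups still overlapped, because 3 of 4 HRE1-RNAi arrays lay below the lowest wild type array while array 3 lay among the wild type values. Groups of probe sets that did not overlap made up 1.08% of all probe sets on the higher side and 1.96% on the lower side of this comparison. A difference of larger size was seen in 10.2% of all probe sets.

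The last neighbours, the hypoxia groups, differed by less than the spread within groups. HRE1-RNAi minus wild type was 0.17 ± 0.14 (SE) on the same scale, and 2 of 4 HRE1-RNAi arrays lay above the highest wild type array. Separated groups made up 1.26% of all probe sets on the higher side and 1.31% on the lower side. This difference moved to 0.10 when wild type hypoxia array 4, the lowest of its group, was left out.

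The hypoxia response of F6'H1, on the log2 scale, was 2.29 ± 0.14 (SE) in wild type and 2.91 ± 0.14 (SE) in HRE1-RNAi. It ranked 174 of 22746 probe sets by size of rise in wild type and 118 in HRE1-RNAi. Among the 13513 probe sets with 1 gene it ranked 96 and 67. In all, 109 probe sets rose at least as much as F6'H1 in both lines.

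The response was larger in HRE1-RNAi by 0.61 ± 0.19 (SE) on the log2 scale. This difference has 2 components. The normoxia mean was 0.731 times that of wild type and the hypoxia mean was 1.13 times that of wild type, so the lower starting level made the larger contribution on the log scale. On the linear scale the mean intensity gained 5880 units in wild type and 7220 units in HRE1-RNAi. Without both HRE1-RNAi arrays numbered 4, the normoxia difference was -0.38 ± 0.14 (SE) and the difference of the responses 0.59 ± 0.19 (SE).

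A response difference larger than that of F6'H1 in favour of HRE1-RNAi was common among all probe sets. F6'H1 ranked 1246 of 22746 on this measure, with 5.47% of probe sets above it. Among the 1276 probe sets called higher under hypoxia in both lines, 102 had a larger difference, 7.99% of them, and their median difference was 0.03. Most probe sets raised in both lines thus had a smaller difference than F6'H1.

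**Figure D2:**
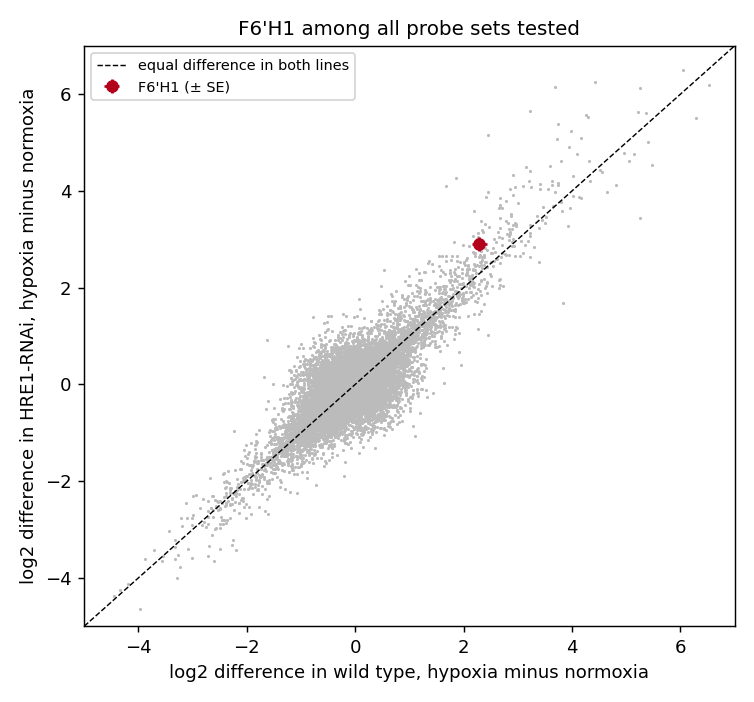
Log2 difference between hypoxia and normoxia in wild type (horizontal) and in HRE1-RNAi (vertical) for all 22746 probe sets, with F6'H1 in red with its standard errors and the line of equal difference dashed. F6'H1, at 2.29 and 2.91, lies above the dashed line within the arm of probe sets raised in both lines.

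No other measured gene of coumarin synthesis and export was called higher under hypoxia. Of 14 listed genes other than F6'H1, 6 had a probe set of their own, and none of the 6 was called higher in either line by limma with Benjamini-Hochberg adjustment over all probe sets at an adjusted p below 0.05. In wild type 3 of the 6 were called lower, and in HRE1-RNAi 2 were. None of the 6 was higher at an unadjusted p below 0.05 in either line, and 3 were lower in each. Over all probe sets, 7.20% were called higher and 10.6% lower in wild type, and 7.51% and 10.7% in HRE1-RNAi. Among only 6 genes, none called higher is close to these shares and says little about the pathway. The median log2 difference of the 6 was -0.47 in wild type and -0.37 in HRE1-RNAi, against -0.06 over all probe sets in each line.

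F6'H2, AT1G55290, encodes a second enzyme of the same reaction. Its intensity was 175, 217.8, 169.1 and 111 in wild type normoxia and 138.7, 76.5, 89.9 and 75.8 in wild type hypoxia. In HRE1-RNAi it was 127.2, 194.1, 181.6 and 260.6 under normoxia and 123.1, 138.5, 142.8 and 75.6 under hypoxia. The groups overlapped in both lines, with the hypoxia arrays mostly at the lower end. The log2 difference was -0.73 ± 0.24 (SE) in wild type, with a limma adjusted p of 0.040, and -0.60 ± 0.24 (SE) in HRE1-RNAi, with an adjusted p of 0.099. The wild type call was lost when any 1 of wild type normoxia arrays 1, 2 or 3 or wild type hypoxia arrays 2, 3 or 4 was left out, at adjusted p from 0.082 to 0.145, and the HRE1-RNAi difference was called without HRE1-RNAi normoxia array 1, at 0.046. The wild type adjusted p was 0.066 after quantile normalization, 0.078 after centring each array on its median and 0.059 with moderation by neither trend nor robust fitting, so these alternatives ended the call too. The log2 differences of F6'H2 and F6'H1 had opposite signs in both lines.

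BGLU42 (AT5G36890), a beta-glucosidase needed for the release of coumarins from Arabidopsis roots, read 412.1, 506.8, 413.9 and 370.8 in wild type normoxia and 267.3, 266, 196.2 and 314.3 in wild type hypoxia. It read 420.7, 389.9, 447.4 and 309.9 in HRE1-RNAi normoxia and 227.1, 264.6, 237.7 and 196.3 in HRE1-RNAi hypoxia. Every hypoxia array was below every normoxia array in both lines, as for 13.0% of all probe sets in wild type and 11.5% in HRE1-RNAi. The log2 difference was -0.68 ± 0.16 (SE) in wild type (limma adjusted p = 0.0037) and -0.72 ± 0.16 (SE) in HRE1-RNAi (adjusted p = 0.0023).

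UGT71C1, a UDP-glucosyltransferase, was called lower in both lines. Its mean intensity went from 711 to 413 in wild type, a log2 difference of -0.78 ± 0.18 (SE) with a limma adjusted p of 0.0038. In HRE1-RNAi it went from 858 to 564, with -0.62 ± 0.18 (SE) and an adjusted p of 0.020. The HRE1-RNAi call was lost without HRE1-RNAi normoxia array 2 or 3 or HRE1-RNAi hypoxia array 1, at adjusted p from 0.057 to 0.106. It was also lost after median centring, at 0.087, and with only the 2 groups compared, at 0.062.

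The other 3 measured members were not called in either line. PYK10, a beta-glucosidase abundant in Arabidopsis roots that can hydrolyse scopolin, had mean intensities of 23652 and 21068 in wild type normoxia and hypoxia, and 22949 and 21091 in HRE1-RNAi. AT1G28680, which the reference table leaves without a symbol and which was listed from general knowledge as a coumarin synthesis gene, had means of 964 and 807 in wild type and 997 and 961 in HRE1-RNAi. AT3G12900, listed in the same way, stayed near or below the pseudocount, with group means from 9.08 to 16.7, so a response could not be measured there.

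The general phenylpropanoid steps upstream were represented by 2 of 17 listed genes. HCT, the hydroxycinnamoyltransferase that leads towards caffeoyl and feruloyl esters, had means of 3738 in wild type normoxia and 2877 in wild type hypoxia. Its log2 difference was -0.38 ± 0.13 (SE), with a limma adjusted p of 0.042. The call was lost, at adjusted p from 0.051 to 0.109, when any 1 of the 8 wild type arrays, HRE1-RNAi normoxia array 1 or 2 or HRE1-RNAi hypoxia array 3 was left out. It was also lost after median centring, where the difference was -0.29 with an adjusted p of 0.162, and with neither trend nor robust moderation, at 0.082. In HRE1-RNAi the means were 3911 and 3109, with -0.35 ± 0.13 (SE) and an adjusted p of 0.062, and array 4 of HRE1-RNAi hypoxia, at 4087, was the only hypoxia array above 2872. Without that array the adjusted p in HRE1-RNAi was 0.0026, and without HRE1-RNAi normoxia array 4 it was 0.033. The HRE1-RNAi difference was also called with array weights (adjusted p = 0.0021), after quantile normalization (0.036) and once the dimmest 40% were dropped (0.043).

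CCOAMT, AT1G67980, annotated as a caffeoyl-CoA 3-O-methyltransferase, the kind of enzyme that makes feruloyl-CoA, rose in both lines. It read 92.8, 99.9, 49.2 and 107.2 in wild type normoxia and 695.9, 338.1, 858.2 and 359.5 in wild type hypoxia. In HRE1-RNAi it read 60.9, 37, 76.6 and 37.9 under normoxia and 976.5, 533.1, 812.4 and 2122 under hypoxia. Neither line showed any overlap between its normoxia and hypoxia arrays. Over all probe sets, 9.07% were separated in that direction in wild type and 7.93% in HRE1-RNAi.

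The log2 difference of CCOAMT was 2.42 ± 0.36 (SE) in wild type, with a limma adjusted p of 5.3e-05, and 3.88 ± 0.36 (SE) in HRE1-RNAi, with an adjusted p of 1.2e-07. Like F6'H1, CCOAMT was lower in HRE1-RNAi than in wild type under normoxia, by a log2 difference of -0.58, and higher under hypoxia, by 0.89, and neither line difference was called by limma. Without HRE1-RNAi hypoxia array 4, the hypoxia line difference was 0.52 and the HRE1-RNAi response 3.51.

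**Figure D3:**
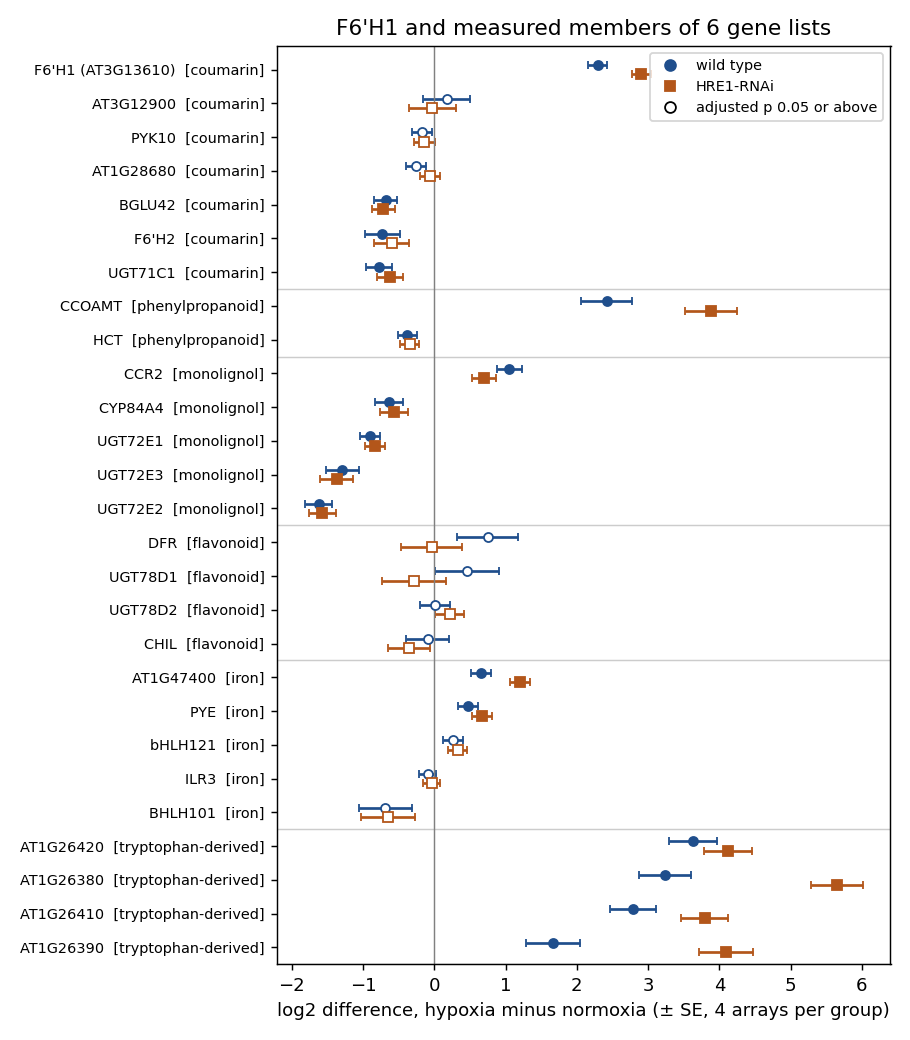
Log2 difference between hypoxia and normoxia in wild type and in HRE1-RNAi for F6'H1 and measured genes of the pathway lists, with standard errors and filled points for differences called by limma. F6'H1 is drawn filled as a description with no test. CCOAMT, at 2.42 and 3.88, rose, whereas BGLU42, at -0.68 and -0.72, fell.

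The monolignol branch, which draws on the same feruloyl-CoA pool to make lignin precursors, had 5 of 15 listed genes measured. In each line 1 of the 5 was called higher and 4 lower, and 3 of these 4 are related glucosyltransferases. Over all probe sets, 7.20% were called higher and 10.6% lower in wild type, and 7.51% and 10.7% in HRE1-RNAi. CCR2, a cinnamoyl-CoA reductase acting directly on such thioesters, rose from a mean of 206 to 446 in wild type (log2 difference 1.05 ± 0.17 SE, limma adjusted p = 9.5e-05) and from 269 to 452 in HRE1-RNAi (0.70 ± 0.17 SE, adjusted p = 0.0055). UGT72E2, a glucosyltransferase of monolignols, fell from 2748 to 887 in wild type and from 2862 to 961 in HRE1-RNAi, with log2 differences of -1.62 ± 0.19 (SE) and -1.57 ± 0.19 (SE). Its relatives UGT72E1 and UGT72E3 fell too, with wild type log2 differences of -0.90 and -1.29. CYP84A4, a cytochrome P450, was the fourth called lower, with -0.64 ± 0.20 (SE) and an adjusted p of 0.026 in wild type and 0.0497 in HRE1-RNAi. Its wild type call was lost without wild type normoxia array 2, 3 or 4 or wild type hypoxia array 1 or 2, at adjusted p from 0.052 to 0.115. Its HRE1-RNAi call was lost without any 1 array other than wild type hypoxia arrays 2 and 3 and HRE1-RNAi hypoxia arrays 1 and 4, at 0.057 to 0.181. Median centring ended both calls, at 0.053 and 0.119. The HRE1-RNAi call was also lost with a pseudocount of 1 (adjusted p = 0.054), quantile normalization (0.114), the replicate number as a block (0.053), only the 2 groups compared (0.053) and neither trend nor robust moderation (0.079).

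The flavonoid branch was represented by 4 of 14 listed genes, DFR, UGT78D1, UGT78D2 and CHIL. Limma called none of them in either line, against 17.8% of all probe sets in wild type and 18.2% in HRE1-RNAi. None passed an unadjusted p of 0.05 either. Their median log2 difference was 0.23 in wild type and -0.16 in HRE1-RNAi. DFR and UGT78D1 were dim, with group means from 20.7 to 35.15 and from 17.55 to 43.7, so their responses were poorly measured.

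Genes of iron deficiency and storage were of interest because coumarins serve iron uptake, and 5 of 32 listed genes were measured. In each line 2 of the 5 were called higher and none lower, against 7.20% of all probe sets called higher in wild type and 7.51% in HRE1-RNAi. The median log2 difference of the 5 was 0.26 in wild type and 0.33 in HRE1-RNAi.

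AT1G47400, without a symbol in the reference table and listed from general knowledge as a gene induced by iron deficiency, read 211.7, 162.4, 208.8 and 205.1 in wild type normoxia and 341.8, 289.2, 318.7 and 327.6 in wild type hypoxia. In HRE1-RNAi it read 152.7, 159.9, 137.4 and 149.4 under normoxia and 379.2, 397.2, 309.9 and 378.7 under hypoxia. As for F6'H1, all hypoxia arrays exceeded all normoxia arrays, as in 9.07% of all probe sets in wild type and 7.93% in HRE1-RNAi. Here every HRE1-RNAi normoxia array lay below every wild type normoxia array, as in 1.96% of all probe sets. Its log2 difference was 0.66 ± 0.14 (SE) in wild type (limma adjusted p = 0.0014) and 1.20 ± 0.14 (SE) in HRE1-RNAi (adjusted p = 8.7e-07).

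PYE, the transcription factor POPEYE of the iron deficiency response, rose from a mean of 231 to 327 in wild type, a log2 difference of 0.48 ± 0.14 (SE) with a limma adjusted p of 0.023. In HRE1-RNAi it rose from 206 to 338, with 0.67 ± 0.14 (SE) and an adjusted p of 0.0014. The wild type call was lost without wild type normoxia array 2, 3 or 4 or wild type hypoxia array 3, at adjusted p from 0.052 to 0.070. The other measured transcription factors of iron regulation, BHLH101, ILR3 and bHLH121, were not called in either line, and BHLH101 was dim, with means of 25.4 and 6.83 in wild type.

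F6'H1 belongs to the large family of 2-oxoglutarate-dependent dioxygenases, of which 35 others among 53 listed loci were measured. In wild type 6 were called higher and 7 lower, which is 17.1% and 20.0% of them. In HRE1-RNAi 5 were called higher and 6 lower, 14.3% and 17.1%. Over all probe sets these shares were 7.20% higher and 10.6% lower in wild type, and 7.51% and 10.7% in HRE1-RNAi. The median log2 difference of the family was 0.06 in wild type and -0.08 in HRE1-RNAi, with calls in both directions.

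Among these dioxygenases the largest rise in wild type was that of AT2G36690, from a mean of 62.0 to 497, a log2 difference of 2.72 ± 0.27 (SE) with a limma adjusted p of 6.3e-08. In HRE1-RNAi its difference was 2.03 ± 0.27 (SE), and the difference of its responses was not called. AT2G38240 rose by a log2 difference of 2.17 in wild type and 2.38 in HRE1-RNAi, from wild type means of 87.2 to 465. AT3G19010 and AT3G49630 also rose in both lines, with wild type log2 differences of 1.31 and 1.29 and HRE1-RNAi differences of 1.10 and 1.70.

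AT5G43450 rose by 1.55 in wild type and 2.66 in HRE1-RNAi on the log2 scale. Its wild type adjusted p by limma of 0.012 became 0.067 without wild type hypoxia array 3, which read 237.5 against 35.1 to 139.6 in the others. AT2G44800 was called in wild type, with 1.95, and not in HRE1-RNAi, with 0.40, and the difference of these responses was not called. Downwards, AT5G12270 had log2 differences of -1.57 in wild type and -1.07 in HRE1-RNAi, and AT5G59540 of -1.04 and -1.49. AT1G04380 went from 47.7 to 3.83 in wild type, where hypoxia left it below the pseudocount, and from 32.6 to 37.7 in HRE1-RNAi, and the difference of its responses had a limma adjusted p of 0.24, which was 0.025 with neither trend nor robust moderation. Its line difference under hypoxia had an adjusted p of 0.14, and it was called with a pseudocount of 1 (0.033) and with neither trend nor robust moderation (0.014). The remaining 4 falls, named after their values were seen, were those of AT2G25450, AT3G19000, AT1G06640 and AT4G16330, with wild type log2 differences of -0.80, -0.65, -0.38 and -0.36 and HRE1-RNAi differences of -0.47, -0.70, -0.32 and -0.58. AT2G25450 lost its call in HRE1-RNAi after median centring, at an adjusted p of 0.061, and kept it in wild type. The falls of AT3G19000 and AT1G06640 in both lines and of AT4G16330 in wild type lost their calls when single arrays of the line were left out. For AT3G19000 these were wild type normoxia array 3, wild type hypoxia array 3 or 4, HRE1-RNAi normoxia array 4 or HRE1-RNAi hypoxia array 1. For AT1G06640 they were wild type normoxia array 3, wild type hypoxia array 2, HRE1-RNAi normoxia array 1, 2 or 4 or HRE1-RNAi hypoxia array 1, 2 or 3. For AT4G16330 they were wild type normoxia array 1 or 3 or wild type hypoxia array 3 or 4. Median centring ended both calls of AT1G06640, at limma adjusted p of 0.082 in wild type and 0.238 in HRE1-RNAi. It also ended the wild type call of AT4G16330, at 0.147. With only the 2 groups compared, the HRE1-RNAi calls of AT1G06640 (0.065) and AT3G19000 (0.057) were lost. With neither trend nor robust moderation, so were the HRE1-RNAi call of AT1G06640 (0.073) and the wild type call of AT3G19000 (0.052). None of the dioxygenase loci named here carries a symbol in the reference table.

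Another inducible branch of secondary metabolism, genes for tryptophan-derived defence compounds, was represented by 4 of 18 listed genes. All 4 were called higher in both lines, against 7.20% of all probe sets in wild type and 7.51% in HRE1-RNAi. They are the neighbouring loci AT1G26380, AT1G26390, AT1G26410 and AT1G26420, which carry no symbol in the reference table and were listed from general knowledge. The count therefore describes these loci and not the whole branch. They are related genes whose transcripts may cross-hybridise, so they are not 4 independent genes. Their median log2 difference was 3.01 in wild type and 4.11 in HRE1-RNAi.

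AT1G26380 read 61.2, 41.6, 63.4 and 45.5 in wild type normoxia and 907.4, 517.4, 816.8 and 397.6 in wild type hypoxia. In HRE1-RNAi it read 24.2, 13.7, 69.9 and 2.4 under normoxia and 1493, 1428, 1738 and 3084 under hypoxia. Every HRE1-RNAi hypoxia array exceeded every wild type hypoxia array, as was true of 1.26% of all probe sets. The log2 response was 3.23 ± 0.36 (SE) in wild type and 5.65 ± 0.36 (SE) in HRE1-RNAi, yet limma called neither the line difference under hypoxia, 1.53 with an adjusted p of 0.64, nor the difference of the responses. With a pseudocount of 64 the line difference under hypoxia was called, at an adjusted p of 0.027. Without HRE1-RNAi normoxia array 3, the difference of the responses was called, at 2.82 with an adjusted p of 0.0058.

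AT1G26390 had a log2 response of 1.67 in wild type and 4.09 in HRE1-RNAi, and a line difference under hypoxia of 1.98 with a limma adjusted p of 0.14. With a pseudocount of 64 that line difference too was called, at an adjusted p of 0.020. AT1G26420 rose from a mean of 12.9 to 307 in wild type, by 3.62, and by 4.12 in HRE1-RNAi.

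Over the 7 pathway lists together, 61 of 163 listed genes were measured besides F6'H1. In wild type 14 were called higher and 15 lower under hypoxia, against 7.20% and 10.6% of the probe sets tested. In HRE1-RNAi 13 were called higher and 12 lower, against 7.51% and 10.7%. None of the 61 was called by limma between the lines under normoxia, where 0.0264% of all probe sets were called, or under hypoxia, where 0.0220% were. None was called for the difference of the responses, where 0.0176% of all probe sets were called. At an unadjusted p below 0.05, 7, 8 and 7 of the 61 passed in these comparisons. That is 11.5%, 13.1% and 11.5% of them, against 4.34%, 4.55% and 3.39% of all probe sets. The related loci for tryptophan-derived compounds supplied 1, 3 and 3 of those that passed. The lists were written with earlier results of these data known, so these shares are a description and no test of the lists.

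The genes most like F6'H1 were sought among 6065 probe sets with 1 gene and above-median brightness, by the Pearson correlation of log2 values over the 16 arrays. These arrays share the split into normoxia and hypoxia, so the correlation largely ranks genes by how cleanly they separate those conditions, and 126 candidates had r of at least 0.95 while the median r was -0.10. The highest were AT5G48430 at 0.989, AT1G54890, CML38, AT5G39580 and AT5G48540 at 0.988, AT5G26200 and AT3G54040 at 0.986, and AT4G01700 at 0.985. CML38 is a calmodulin-like protein, and the others carry no symbol in the reference table.

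AT5G48430 read 78, 65.2, 62.2 and 40.3 in wild type normoxia and 5171, 6223, 3905 and 5071 in wild type hypoxia. In HRE1-RNAi it read 47.2, 40.6, 59.8 and 28.2 under normoxia and 4028, 6053, 4938 and 6599 under hypoxia. Its log2 response of 6.05 in wild type and 6.50 in HRE1-RNAi was far larger than that of F6'H1, because the correlation does not weigh size. Over the 8 genes the wild type response ran from 1.62 for AT1G54890 to 6.05.

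The response was larger in HRE1-RNAi than in wild type for all 8 genes, as for F6'H1, by log2 differences of 0.18 to 0.96. Limma called none of these 8 differences of response. The genes were chosen over the same arrays, so their shared direction is part of the likeness that chose them. With group means removed, their correlation with F6'H1 over the 16 arrays fell to 0.18 to 0.64, and by Spearman's rank correlation 2 of the 8 stayed among the nearest 8. The likeness therefore lies mainly between groups of arrays and not between single arrays.

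**Figure D4:**
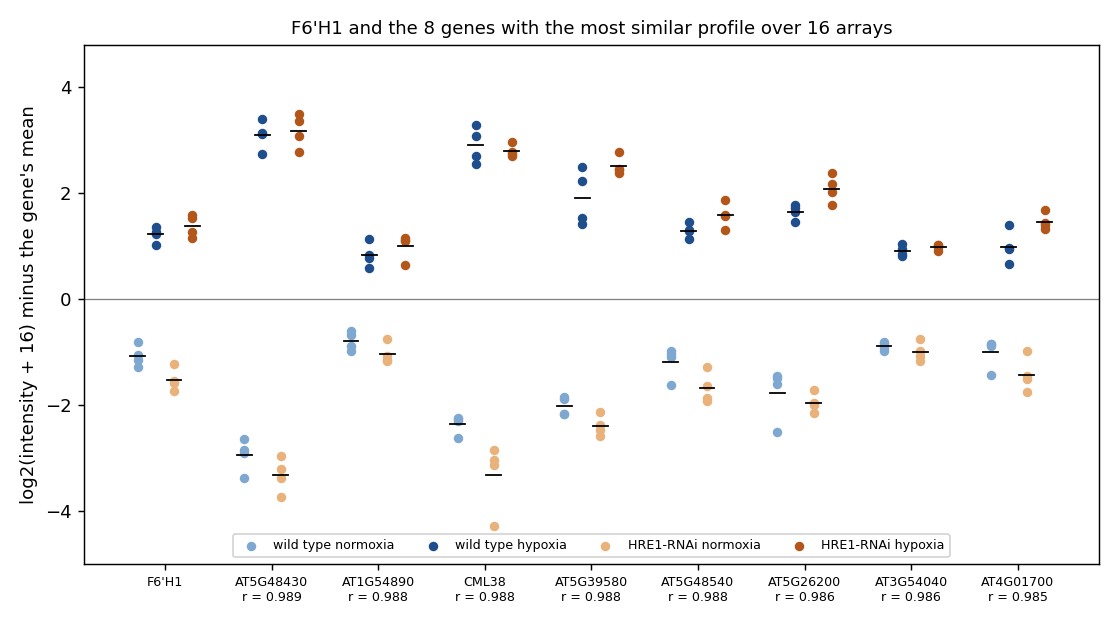
Log2(intensity + 16) of F6'H1 and the 8 genes with the highest correlation to it, each centred on its own mean over 16 arrays, with points for arrays and bars for group means. All 9 genes show the hypoxia arrays above the normoxia arrays, with responses from 1.62 for AT1G54890 to 6.05 for AT5G48430 in wild type.

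The opposite pattern was shown most closely by AT5G14260 at r = -0.992, AT4G16190 at -0.988, AT2G26690 at -0.986 and AT1G70880 at -0.983. AT2G26690 is NPF6.2, a member of the NRT1/PTR transporter family.

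By the size of 3 log2 differences (both responses and the normoxia line difference), the nearest gene was AT5G60760, with 2.27, 3.04 and -0.44 at a distance of 0.139. It read 128.2, 126.7, 95.9 and 79.9 in wild type normoxia and 593.6, 697.8, 492 and 525.3 in wild type hypoxia. In HRE1-RNAi it read 78.8, 87.4, 118 and 33.8 under normoxia and 625.6, 752.6, 761.2 and 773.9 under hypoxia. The order of its group means follows largely from the closeness by which it was chosen and is not a separate result. The next nearest were AT3G46280 at a distance of 0.234, AT4G31020 at 0.271, AT4G01700 at 0.295 and ASPGB1, an asparaginase, at 0.359. Under hypoxia AT4G31020 and ASPGB1 had a lower mean in HRE1-RNAi than in wild type, 688 against 698 and 1722 against 1981, unlike F6'H1.

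In the reference annotation 6 genes within 6 places of it had a probe set of their own, and limma called 1 of them, AT3G13650, in both lines, where 17.8% of all probe sets were called in wild type and 18.2% in HRE1-RNAi. AT3G13650, which lies 5 genes away, rose from a mean of 2100 to 4701 in wild type, a log2 difference of 1.16 ± 0.16 (SE) with an adjusted p of 1.1e-05. In HRE1-RNAi its difference was 1.11 ± 0.16 (SE), with an adjusted p of 1.6e-05. AT3G13580, which lies 3 genes away on the other side, had wild type means of 4866 and 5314, a difference of 0.13, and was not called.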

How the data were processed

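The authors deposited 1 linear intensity per probe set and array, made with MAS5 per the submitters' processing notes, with no version given. No genome build is named for the values, so no coordinates are given. Depth has no counterpart on arrays, and the number of arrays limits precision. Of 22810 probe sets 64 controls were left out. The probe table gives 1 gene for 13513 probe sets, more than 1 for 503 and no gene for 8730. Of those with 1 gene, 13436 were found in the reference genes (TAIR10.1).

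The values used are log2(intensity + 16), a scale on which dim probe sets change too little. One model in limma 3.58.1 (R 4.3.3) estimated the 4 group means from the 16 arrays, with variances moderated by trend and robust fitting on 12 residual degrees of freedom. All 5 contrasts were two-sided, and Benjamini-Hochberg adjustment ran over the 22746 probe sets separately for each. Called means an adjusted p below 0.05. No adjusted p is given for F6'H1. The fit was tested on simulated data.

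F6'H1, the gene lists, the comparisons and the alternatives were chosen with earlier results of these data known, and some lists hold loci placed from general knowledge. A gene with several probe sets was represented by the one with the highest mean log2 value. Named in the text are every measured member of the coumarin and phenylpropanoid lists, up to 6 called members of each other list and contrast by size, the 8 most and 4 least correlated genes, and the 5 nearest in 3 differences. The flavonoid members, the uncalled iron members and 4 smaller dioxygenase falls were named in addition, after their values were seen.

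The results were recomputed with a pseudocount of 1 or 64, after quantile normalization or median centring of the arrays, without the dimmest 40% of probe sets, with a block for the replicate number, on the 2 groups of a contrast alone, with plain moderation, with array weights, without each array, and without both HRE1-RNAi arrays numbered 4.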

Additional observations from a re-analysis of the deposited data

Results flagged for a closer look

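None of the 4 groups of F6'H1 held an array far from the others by Dixon's criterion. Among 60 named genes with 240 groups of 4 arrays, 19 groups did, where chance gives about 5% of groups. In the coumarin and phenylpropanoid lists, wild type hypoxia array 2 read 1016.9 for AT1G28680, above the other 3 arrays at 727.2 to 745.3. The same array read 39.3 for AT3G12900, where the others read 7.1 to 11.4. HCT (AT5G48930) read 4087.3 in HRE1-RNAi hypoxia array 4, against 2622.1 to 2872.

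In the monolignol and iron lists, UGT72E1 (AT3G50740) read 815 in wild type hypoxia array 2, against 630.4 to 661.1. AT1G47400 read 162.4 in wild type normoxia array 2, against 205.1 to 211.7. Among the dioxygenases, AT1G06640 read 7515.7 in HRE1-RNAi normoxia array 4, against 6851.4 to 6920.6. AT5G43450 read 251.2 in HRE1-RNAi hypoxia array 1, against 86.9 to 96.4, and AT1G04380 read 22.4 in HRE1-RNAi hypoxia array 3, against 41.4 to 45.1.

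AT1G26410 read 23.7 in HRE1-RNAi normoxia array 1, against 1.7 to 4.7, and 579.2 in HRE1-RNAi hypoxia array 4, against 215.4 to 269.2. AT1G26420 read 38.7 in wild type normoxia array 1, against 1.8 to 7.8, and 27.7 in HRE1-RNAi normoxia array 3, against 1.3 to 5.1. In HRE1-RNAi hypoxia array 4 it read 583.8, against 326.4 to 353.7.

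Among genes with a profile like that of F6'H1, AT1G54890 read 1133.5 in HRE1-RNAi hypoxia array 1, against 1555.7 to 1629.3. AT5G39580 read 4367.8 in HRE1-RNAi hypoxia array 4, against 3290.3 to 3457.9. AT4G01700 read 258.4 in wild type normoxia array 3, against 385.1 to 400.5, and AT5G60760 read 625.6 in HRE1-RNAi hypoxia array 1, against 752.6 to 773.9. Of the neighbouring genes, AT3G13580 read 4227.5 in HRE1-RNAi hypoxia array 2, against 5650.8 to 5769.4. AT3G13650 read 6490 in HRE1-RNAi hypoxia array 4, against 3551.5 to 3880.7.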

How the results depend on the processing

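The differences of F6'H1 kept their direction under every alternative run. With each array left out in turn the hypoxia response was 2.22 to 2.38 in wild type and 2.84 to 3.00 in HRE1-RNAi, the line difference -0.55 to -0.36 under normoxia and 0.10 to 0.24 under hypoxia, and the difference of the responses 0.53 to 0.71, all on the log2 scale. The counts of called probe sets between lines were less stable. Under normoxia 6 were called, 6 to 10 with 1 array left out, 18 with array weights and 17 without both HRE1-RNAi arrays numbered 4. Under hypoxia 5 were called, 2 to 6 with 1 array left out, 9 with a pseudocount of 64, 3 with only the 2 groups compared, 8 with array weights and 19 without both HRE1-RNAi arrays numbered 4. For the difference of the responses 4 were called, 1 to 6 with 1 array left out and 7 with array weights. Of the listed genes, none was called between lines under hypoxia, against 1 with a pseudocount of 1, 2 with a pseudocount of 64 and 1 with neither trend nor robust moderation. For the difference of the responses none was called, against 1 with neither trend nor robust moderation and 0 to 1 with 1 array left out. The cause of these changes was not tested. Called probe sets under hypoxia numbered 4040 in wild type, 3331 to 4425 with 1 array left out, and 4135 in HRE1-RNAi, 3414 to 4322. Of these 40.5% and 41.3% were higher, and 53.9% and 55.6% after centring each array on its median.

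Whether the replicate numbers pair the arrays, in part or within a line, was not tested. Of 24 pairs of same-numbered arrays 6 correlated above 0.1 after removing group means. Of 16 arrays 7 correlated best with their own number. Of the 6 pairs, 2 join wild type normoxia and hypoxia (2 of 4) and 3 join HRE1-RNAi normoxia and hypoxia (3 of 4). The highest correlation, 0.42, joins the HRE1-RNAi normoxia and hypoxia arrays numbered 4. With the replicate number as a block the difference of the F6'H1 responses was 0.61 ± 0.17 (SE). Signal near the pseudocount, as for AT3G12900, BHLH101, DFR and UGT78D1, limits what a log2 difference can show.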
